A study of Ciona robusta with 6 samples.

Results

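In Ciona robusta, a tunicate and so a close invertebrate relative of vertebrates, 174 gene models were higher in all 3 libraries of cells mutagenised at Rnf149 than in all 3 control libraries, by a margin of at least 1.3-fold. The members were chosen from the measured values. A model was kept when its mean level over the 6 libraries reached 10 CPM (the count divided by the library total, times 1000000) and its lowest CPM among the CRISPR libraries was at least 1.3 times its highest CPM among the controls. That quotient is called the separation ratio here. Of 17822 models in the table, 8496 reached 10 CPM, and the 174 members are 2.05% of these. Applied in the opposite direction, the same rule kept 87 models that were lower in the CRISPR libraries (1.02%). Because the difference between the groups chose the members, its sign and size are given below as a description of them and support nothing further.

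The cardiopharyngeal lineage of tunicates gives rise to the heart and to the muscles of the siphons, and its founder cells express the transcription factor Mesp. Their descendants divide asymmetrically, and FGF-MAPK signalling then separates pharyngeal muscle precursors from heart precursors. RNF149 belongs to the transmembrane RING finger proteins, a family of E3 ubiquitin ligases, and in human cells it has been reported to ubiquitinate the kinase BRAF, a component of the MAPK pathway. The design compared cells mutagenised at Rnf149 with control cells. Whether the sorted cells belong to this lineage was not checked here.

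Each group held 3 libraries of RNA from 1000 cells sorted from dissociated embryos at 20 h after fertilization. One group had CRISPR/Cas9 mutagenesis of Rnf149, and the other is a control whose titles name Tyr. The sources used here do not give the sort marker, the promoter driving Cas9, the guides or the number of embryos behind each library. They also do not say whether the replicates are separate pools of embryos, so the p-values given reflect variation among these libraries, which may be technical. Totals ran from 18127682 to 22115917 counts, so that 1 count corresponds to between 0.0452 and 0.0552 CPM. The table lists identifiers without gene names, and 0 of these were found among 21486 RefSeq genes of assembly ASM961781v2. Members are therefore described by level, chromosome and neighbours. The edited gene and the markers of heart, pharyngeal muscle or other cell types were not analysed here, so neither the labels nor the sorted cell type were checked against them.

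The members together took 1.95%, 1.73% and 1.84% of all counts in control replicates 1, 2 and 3. In the CRISPR libraries they took 4.08%, 4.60% and 3.19%. CRISPR replicate 2 had the largest share and CRISPR replicate 3 the smallest of its group. The mean share was 1.84% ± 0.111 in controls and 3.96% ± 0.713 in CRISPR libraries (SD, n = 3 each), a 2.15-fold difference whose direction the rule fixed. Without the 3 members above 1000 CPM the fold was 2.24, and the rule fixed its direction there too. The 10 members with the highest mean CPM held between 46.7% (CRISPR replicate 1) and 53.6% (control replicate 3) of a library's member counts. In bulk samples, more cells of a type and more RNA per cell cannot be told apart.

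**Figure D1:**
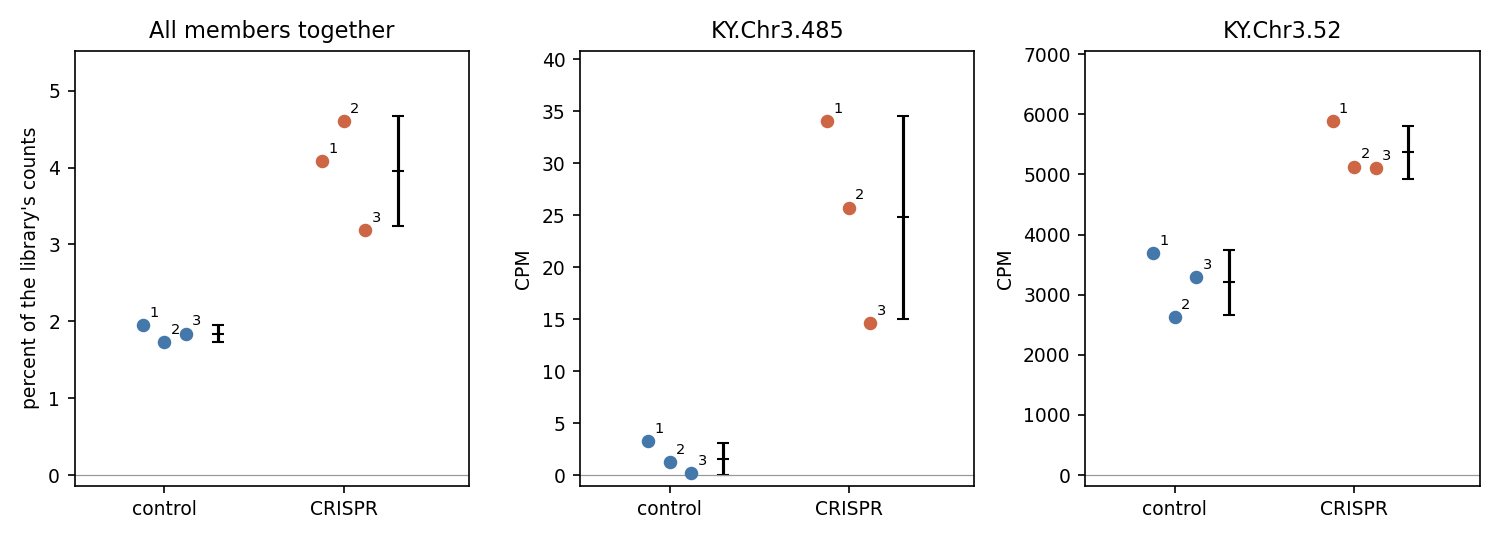
Left, percent of each library's counts taken by the 174 members; middle and right, CPM of KY.Chr3.485 and KY.Chr3.52. Points are libraries with their replicate number, and bars give the mean and SD of 3 libraries. Control shares lie between 1.73% and 1.95%, and CRISPR shares between 3.19% and 4.60%.

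Members were found at low and high levels. Their mean level ran from 10.3 to 4287.8 CPM with a median of 40.6 CPM, against a median of 50.4 CPM over all 8496 models. Members of at least 100 CPM numbered 56 (32.2%, against 27.1% of all models), and 3 of the 77 models of at least 1000 CPM were members. Most differences were moderate. The ratio of the CRISPR mean to the control mean had a median of 2.24 and quartiles of 1.91 and 2.67, and over all models the median was 0.998. It was at least 2 in 117 members and at least 4 in 11, against 230 and 14 of all 8496 models. The separation ratio, a stricter measure, had a median of 1.46. It reached 1.5 in 68 members, 2 in 15 and 3 in 3.

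**Figure D2:**
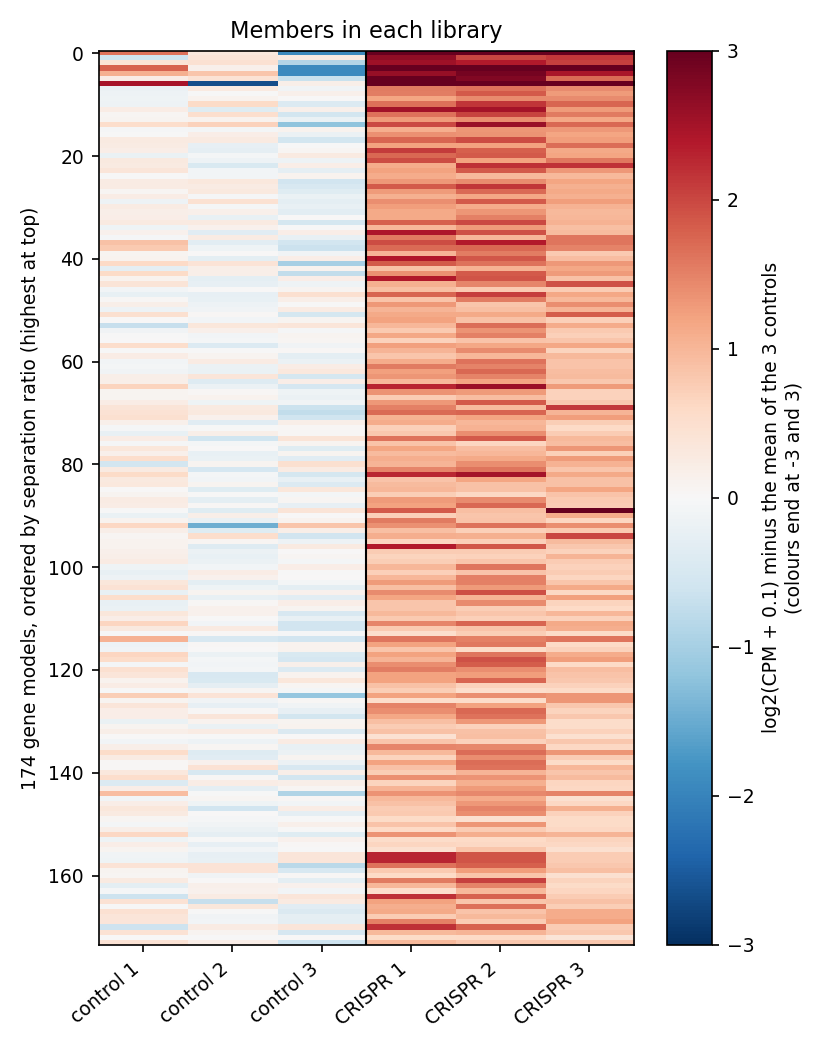
Each row is 1 of the 174 members, ordered by separation ratio with the highest at the top, and each column is a library. Colour gives log2(CPM + 0.1) minus the mean of the 3 controls. All 3 CRISPR columns are above the controls, as the rule requires, and CRISPR replicate 3 is the palest of them in many rows.

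The widest separation belonged to a model that was nearly silent in the controls. KY.Chr3.485, on chromosome 3, received 68, 27 and 4 counts from control replicates 1, 2 and 3, and 616, 569 and 282 from CRISPR replicates 1, 2 and 3. All CRISPR libraries lay far above the controls, and control replicate 1 was the highest and control replicate 3 the lowest of the controls. In CPM these are 1.57 ± 1.57 in controls and 24.8 ± 9.74 in CRISPR libraries (SD, n = 3 each), with a separation ratio of 4.45 (95% exact interval from counting error, 3.41 to 5.89). Its fitted log2 fold change was 3.97 (SE 0.62, edgeR adjusted p = 0.0861), and without control replicate 1 it was 5.04.

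The model numbered directly before KY.Chr3.485 was a member as well. Its counts were 101, 33 and 6 for the controls and 1445, 1421 and 250 for the CRISPR libraries, and its ratio of group means, 23.6, was the largest of all members. Its separation ratio of 2.66 was the fourth largest. In both neighbours replicate 1 was the highest and replicate 3 the lowest library of each group. Another member on chromosome 3 was counted 137, 2 and 26 times among controls and 787, 1520 and 307 times after CRISPR, a 16.1-fold ratio of means. These 3 models were the only members with a control library under 20 counts.

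The second and the third in separation were a model on chromosome 3 at 3.19 and one on chromosome 13 at 3.05, and the fifth was on chromosome 7 at 2.64. The model at 3.19 had 2.17, 4.39 and 4.13 CPM in the controls and 21.9, 14.0 and 15.1 CPM in the CRISPR libraries, a spread of 2.03-fold and 1.56-fold. The one on chromosome 13 had 8.76, 8.96 and 3.51 CPM in the controls and 38.4, 34.3 and 27.3 CPM in the CRISPR libraries. Of the 11 members with a ratio of means of at least 4, 9 had a mean under 100 CPM, as did 118 of all 174, and 4 were on chromosome 3. The 2 above that level were consecutive models on chromosome 1, at 475.7 and 371.9 CPM.

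**Figure D3:**
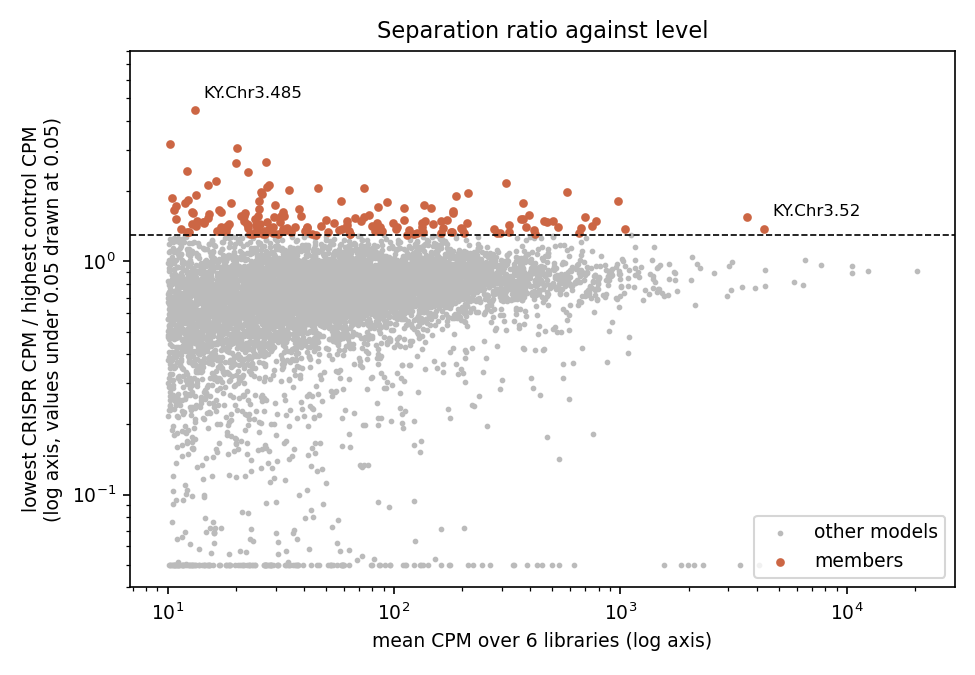
Separation ratio (lowest CRISPR CPM over highest control CPM) against mean CPM, both on log axes, for 8496 models. Orange points are the 174 members, above the dashed line at 1.3. KY.Chr3.485 has the highest ratio, 4.45, and KY.Chr3.52 the highest level.

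At the other end of the range, KY.Chr3.52, also on chromosome 3, was the most abundant member. Its level was 3693.2, 2626.2 and 3294.4 CPM in the controls and 5881.7, 5130.1 and 5101.1 CPM in the CRISPR libraries. The groups did not overlap, but control replicate 2 was lower than the other controls. The means were 3204.6 ± 539.2 and 5371.0 ± 442.6 CPM (SD, n = 3 each), a 1.68-fold ratio, and the fitted log2 fold change was 0.73 (SE 0.12, edgeR adjusted p = 0.0943).

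The second most abundant member, on chromosome 4, showed a different profile. It had 2235.1, 2116.4 and 2367.6 CPM in the controls and 4995.6, 6397.2 and 3684.6 CPM in the CRISPR libraries, so that the controls lay within 1.12-fold of each other and the CRISPR libraries within 1.74-fold. The third, on chromosome 1, stood at 570.6, 553.5 and 652.1 CPM in the controls against 1557.5, 2075.1 and 896.7 CPM. It repeated the order of the CRISPR libraries seen on chromosome 4, with replicate 2 highest and replicate 3 lowest. The fourth, also on chromosome 1, did not: it had 636.4, 605.1 and 693.3 CPM in the controls and 1387.3, 1255.6 and 1266.2 CPM in the CRISPR libraries, tight in both groups. The fifth, on chromosome 4, had 557.7, 565.0 and 579.7 CPM in the controls and 933.0, 1176.8 and 861.0 CPM in the CRISPR libraries.

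The order of the CRISPR libraries was shared by many members. The rule treats the libraries of a group alike and names no order. It does use the lowest CRISPR and the highest control library, so the orders below are not independent of the choice of members. Replicate 2 was highest and replicate 3 lowest in 71 of the 174 members (40.8%), and in 1512 of 8322 other models of at least 10 CPM (18.2%). Among members of at least 100 CPM the count was 31 of 56 (55.4%), against 26.3% of other models at that level. Replicate 3 was the lowest CRISPR library in 107 members (61.5%, against 34.3% of other models) and so set their separation ratio. Among the controls, replicate 1 was the highest in 88 members (50.6%, against 33.4%). Libraries and not genes are the replicates, so these shares are descriptions.

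Membership therefore rested unevenly on the libraries. With the rule applied to 5 libraries, 397 models passed without CRISPR replicate 3 and 413 without control replicate 1, against 200 to 271 without any other 1 library. Leaving out a library can only keep or raise a separation ratio, so a member could be lost only through the minimum mean level. Larger sets that hold most members therefore follow from the rule, and only the differences between libraries are described. Of the 174 members, 170 were kept without CRISPR replicate 3 and all 174 without control replicate 1. The highest and lowest control libraries of a member differed by a median of 1.45-fold, and its CRISPR libraries by 1.47-fold. Over all 8496 models the medians were 1.39 and 1.29 (0.1 CPM added). In 27 members the controls lay within 1.2-fold of each other. Their median level was 134.8 CPM, against 33.9 CPM in the remaining 147, and their CRISPR libraries spanned a median of 1.28-fold.

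The counting error of the separation was computed from the same libraries that the rule used. For each member, the ratio of the library that was lowest among CRISPR to that highest among controls was given a 95% exact (Clopper-Pearson) interval. It lay above 1 in all 174 members, which the rule made likely, and above 1.3 in 100, so that for the others counting error alone could move the ratio below the threshold. The intervals cover counting error only, and amplified reads without molecular identifiers are not independent molecules.

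The members were then set beside the fit over all models. All 174 were among the 13789 models tested by edgeR's quasi-likelihood test, and 3 rose at an adjusted p under 0.05 (Benjamini-Hochberg over all models), against 0.0218% of all models called higher. All 3 models called higher in the whole table were members: the fourth most abundant member (edgeR adjusted p = 0.0212), a further model on chromosome 1 at 330.6 to 863.1 CPM and 1 on chromosome 14. Adjusted p over the members ran from 0.0212 to 0.369 with a median of 0.141. All 174 had an unadjusted p under 0.05, where 6.24% of all models had one and were higher. DESeq2 called 159 members, against 2.61% of all models with an adjusted p. Since the rule used this contrast, nothing is read from these counts. The fitted log2 fold changes ran from 0.50 to 4.55 with a median of 1.15 and a median SE of 0.26, and the median over all tested models was -0.02.

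Without CRISPR replicate 3, the edgeR test called 30 members. When CRISPR replicate 1, CRISPR replicate 2 or control replicate 2 was left out it called 0, with 165 to 174 members at an unadjusted p under 0.05. Leaving out control replicate 1 gave 1 call and control replicate 3 gave 2. The shares of all models called in these fits are not given here. The rule also used this contrast, so nothing is read from these counts about the members.

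Chromosomal position, which the rule did not use, is read from the identifiers. Chromosome 12 held 18 members, 3.77% of its 477 models of at least 10 CPM, the highest share of any numbered chromosome, and none (0) of the 87 models of the opposite set. Chromosome 3 held 24 members (2.87%), chromosome 9 held 17 (2.84%), chromosome 13 held 6 (2.68%) and chromosome 1 held 29 (2.61%). The shares were lowest on chromosome 10, with 4 members (0.737%), chromosome 5, with 6 (1.04%), and chromosome 2, with 8 (1.07%). On chromosomes 2 and 5 the opposite set was the larger, with 14 and 12 models. The median fitted log2 fold change of all models of at least 10 CPM lay between -0.06 and 0.04 on every numbered chromosome. The shares of members were not tested.

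The 18 members on chromosome 12 were not 1 block. Only 4 of them stood in consecutive pairs, their mean levels ran from 10.6 to 532.4 CPM, and their ratios of means from 1.63 to 3.30. Their number was 16 with TMM-scaled totals, 28 at a separation ratio of 1.2 and 9 at a ratio of 1.5. Over these and the other versions of the rule, including those without 1 library, chromosome 12 held between 8.47% and 13.2% of the set, where 5.61% of all models of at least 10 CPM are on this chromosome.

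**Figure D4:**
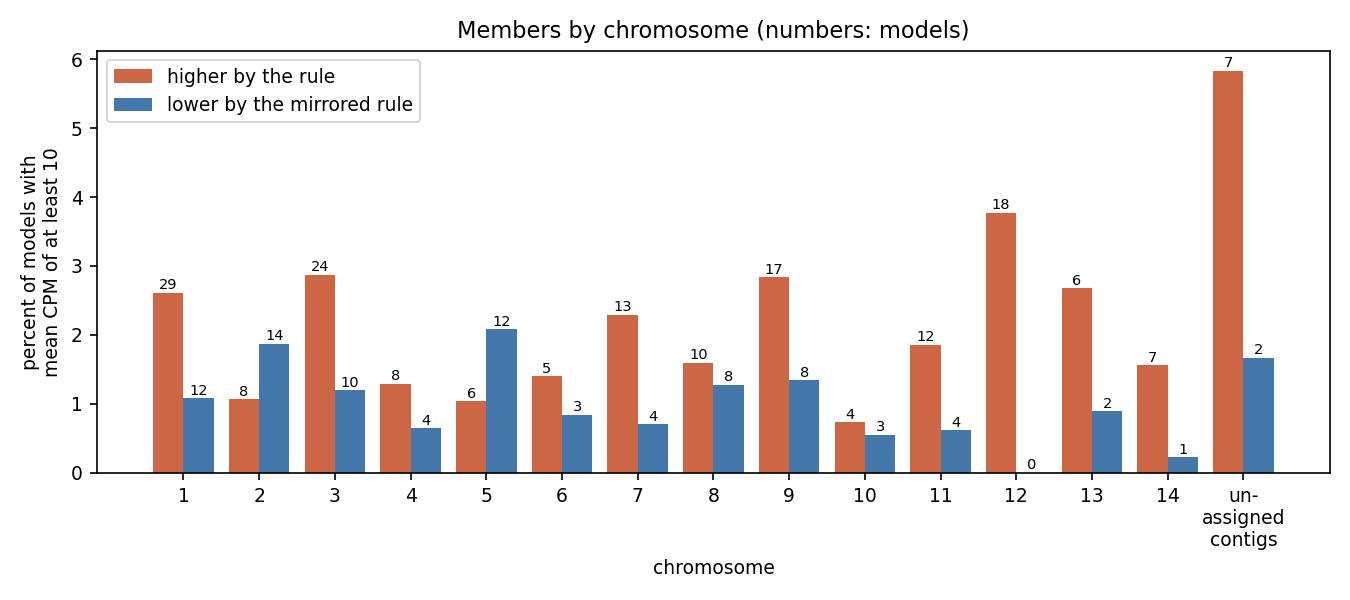
Percent of gene models with mean CPM of at least 10 that were higher by the rule (orange) or lower by the mirrored rule (blue), by chromosome, with the number of models above each bar. Chromosome 12 has 18 higher and 0 lower models, and chromosomes 2 and 5 have more lower than higher ones.

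Members often stood next to each other. Of 92 members whose next-numbered model also reached 10 CPM, 19 (20.7%) were followed by another member and 1 (1.09%) by a model of the opposite set. Among 4487 non-members with such a neighbour, 82 (1.83%) were followed by a member. In all, 34 members (19.5%) were in a consecutive pair, and 63 (36.2%) lay within 10 numbers of another member. Both counts include a run of 6 members on an unassigned contig, described below. The matching shares over all models were not computed, so nothing is read from these 2 shares. The 19 pairs include 5 from a single run on an unassigned contig, and the other 14 lie on 8 chromosomes. The 2 members of a pair often differed in level: on chromosome 14 one member at 749.9 CPM was followed by one at 28.0 CPM. None of the 19 pairs (0) had log2 CPM within 0.3 of each other in every library.

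Neighbours that were not members leaned slightly the same way. Of 153 non-member models directly beside a member, 87 (56.9%) had a fitted log2 fold change above 0, with a median of 0.03, whereas 46.0% of all 8322 non-members did, with a median of -0.03. In 24 of the 153 (15.7%) all CRISPR libraries lay above all controls, against 8.5% of all non-members. Neighbouring models may share reads at their ends, and the strand setting of the counting is not given, so whether the counts of neighbours are independent was not tested.

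The longest run was 6 consecutive members on 1 unassigned contig, out of 8 models of at least 10 CPM and 55 listed there. The first model of the run was counted 405, 787 and 809 times among controls and 2491, 2258 and 989 times after CRISPR. For the fourth these counts were 404, 785 and 808 and then 2489, 2252 and 983, so the counts of the first and the fourth agreed within 0.61% in every library. The second and the fifth differed by at most 3.11%, and the sixth exceeded the third by 1.24 to 1.3 times. The counts of places 1 to 3 were thus nearly repeated at places 4 to 6. How reads matching several places were counted is not given, so the 6 members may amount to 3 measurements.

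Similar counts appeared outside the contig. A member on chromosome 1 had 1749, 1401 and 1885 counts in controls and 7519, 6416 and 2822 after CRISPR, within 0.97 to 1 times the sixth model of the run, which was counted 1752, 1398 and 1896 times and then 7539, 6400 and 2909 times. A member on chromosome 8, at 1453, 1100 and 1646 counts in controls and 6116, 5226 and 2210 after CRISPR, stayed within 0.946 to 1.1 times the third. One direct neighbour of each was higher in the same libraries without being a member, with separation ratios of 1.18 on chromosome 1 and 1.05 on chromosome 8, and that on chromosome 8 had 0.866 to 1.11 times the counts of the second model of the run. Whether these models share reads was not tested, and their values are uncertain to that extent. Over all members, 30 pairs had log2 CPM within 0.3 of each other in every library, and 2 of these pairs lay within 10 numbers on 1 sequence. In 3 pairs the log2 counts stayed within 0.1: the first with the fourth and the second with the fifth model of the run, and the sixth with the member on chromosome 1.

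The 6 models of the run together took 0.0405% to 0.0574% of the counts in the controls and 0.0816% to 0.229% in the CRISPR libraries. CRISPR replicate 3 was the lowest of its group in all 6 models, at 218.9 CPM in the second model against 621.9 and 474.5 CPM in replicates 1 and 2. The fitted log2 fold changes were 1.6 to 1.85, with edgeR adjusted p from 0.133 to 0.220. The models on either side of the run did not share this difference: the one before had a log2 fold change of -0.07, and the one after had at most 30 counts in any library.

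**Figure D5:**
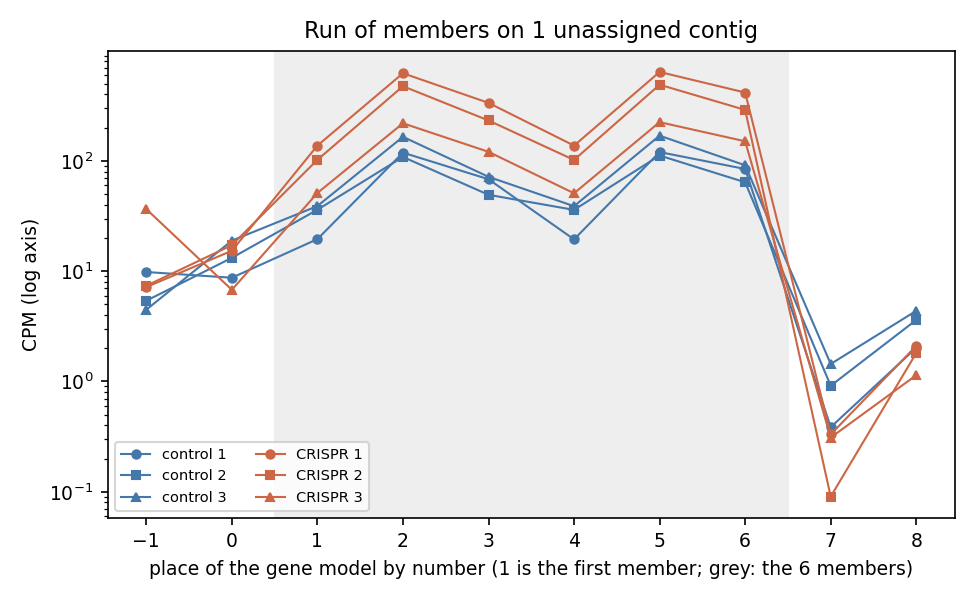
CPM (log axis) of 10 consecutively numbered models on 1 unassigned contig, 1 line per library, controls blue and CRISPR orange. The grey band marks the 6 members; the profile of places 1 to 3 repeats at places 4 to 6, and inside the band CRISPR replicate 3 lies between the other CRISPR libraries and the controls.

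A consecutive pair on chromosome 1 was also examined, chosen after its values were seen. The first had 270.9, 172.3 and 126.3 CPM in the controls and 862.8, 1024.4 and 397.7 CPM in the CRISPR libraries. The second had 216.4, 121.0 and 96.2 CPM and 659.9, 810.4 and 327.5 CPM. Both kept the same order of libraries in each group, and their ratios of means were 4.01 and 4.15.

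Values were close on both sides of the threshold. Just inside it, a model on chromosome 12 with a separation ratio of 1.3013 had 42.7, 36.1 and 20.5 CPM in the controls and 61.7, 55.6 and 55.5 CPM in the CRISPR libraries. Just outside, a model on chromosome 14 with a ratio of 1.2982 had 35.8, 32.0 and 25.8 CPM and 54.0, 46.4 and 47.5 CPM. In 881 models of at least 10 CPM (10.4%) all CRISPR libraries lay above all controls at any margin, and in 628 (7.39%) all lay below.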

How the data were processed

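The deposited file holds raw counts of reads per gene model, not normalized, for 6 libraries. The authors used STAR 2.7.0a, featureCounts of Subread and DESeq2, per the submitters' processing notes; the sources used here do not give the strand setting, the treatment of multi-mapping reads or the genome build. Per the labels' protocols, cDNA was made by template switching from sorted cells. Columns were matched to samples by title. Members and lists were chosen with earlier results of these data known.

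CPM used column totals. Counts were tested in R 4.3.3 with edgeR 4.0.16 (filterByExpr, TMM, robust quasi-likelihood fit, 2-sided, threshold 0.05), with DESeq2 1.42.0 and limma-voom (limma 3.58.1) as alternatives; scripts were tested on simulated data. The 2 identifiers printed are the members with the largest separation ratio and the highest mean CPM; further models are described by rank, run or distance to the threshold, and the pair on chromosome 1 was chosen after its values were seen. Same-numbered libraries deviated from their group means with correlations of -0.072, -0.358 and -0.438 (numbers 1, 2 and 3, over 8496 models), so the numbers were not taken to pair libraries. Other rules and fits, each library left out, and 1 model kept of near-identical pairs were tried as alternatives.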

Additional observations from a re-analysis of the deposited data

How the results depend on the processing

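The rule kept 164 models with TMM-scaled totals (158 of them members) and 165 with DESeq2 size factors (157 members). It kept 211 at a mean of at least 5 CPM, 139 at 20 CPM, 268 at a separation ratio of 1.2 and 68 at 1.5. Leaving out 1 library, which cannot lower a separation ratio, gave 200 to 413 models. At a ratio of 1.5 the most members on 1 chromosome fell from 29 to 12, and the consecutive pairs from 19 to 4. In alternatives chosen after seeing the data, 172 members and 16 pairs were left with 1 model kept of the 2 near-identical pairs within 10 numbers, and 149 members and 13 pairs with 1 kept of all 30. The number of members past the edgeR threshold was 3 with RLE factors, no filter or the strict filter (50 counts in 3 libraries), 2 with limma-voom, 1 with the fit that is not robust, 33 at the looser threshold of 0.1, 159 with DESeq2, and 0 to 30 with 1 library left out. With the replicate number as a block it was 0, and 173 members had an unadjusted p under 0.05. Shares over all models are given above only for the main edgeR fit and for DESeq2. Because the rule used the same contrast, these counts describe the settings and nothing is read from them about the members. Why the counts differ was not examined, and the cause was not tested. The members' median log2 fold change stayed between 1.01 and 1.23 in the fits with RLE factors, DESeq2, the block or 1 library left out. KY.Chr3.485 and KY.Chr3.52 kept their direction in all of these, which their selection by the rule made all but certain. For KY.Chr3.485 the log2 fold change ran from 3.44 (without control replicate 3) to 5.04 (without control replicate 1). For KY.Chr3.52 it ran from 0.64 to 0.82. Adjusted p ran from 8.11e-06 to 0.39 and from 2.8e-05 to 0.39, lowest with DESeq2 and otherwise from edgeR. The 2.15-fold ratio of count shares ran from 1.98 to 2.36 with 1 library left out. Low levels limit the members with few control counts.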
